A study of Mus musculus with 11 samples.

Results

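Scavenger receptors are the surface and lysosomal proteins by which macrophages take up modified lipoproteins, dying cells, microbes and other particles. The 10 receptor genes Msr1, Marco, Cd36, Scarb1, Scarb2, Cd68, Olr1, Mrc1, Stab1 and Cd163 were taken by gene symbol from a table of 31936 mouse genes, and all 10 were found. Their RNA was measured by sequencing in peritoneal macrophages of female mice, cells drawn into the abdominal cavity by thioglycollate. There were 6 libraries from cells given a microRNA-150 mimic, a synthetic RNA meant to raise the activity of that microRNA, and 5 from cells given a negative control. The labels name no genotype, strain, dose, time or means of delivery, and do not say whether replicates were separate animals or cultures. Every p-value therefore measures the spread between these libraries, which may be technical, and the microRNA itself was not measured.

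The receptors fall into structural classes. Class A receptors (Msr1, Marco) are trimers with a collagen-like stalk that bind oxidised or acetylated lipoproteins and bacteria. Class B receptors have both ends in the cytoplasm and a large outer loop: Cd36 takes up oxidised lipoproteins and fatty acids, Scarb1 is the receptor for high-density lipoprotein, and Scarb2 sits in the lysosomal membrane. In macrophages, uptake through Msr1 and Cd36 is known to load cells with cholesterol and make them foamy.

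The most abundant of these transcripts per unit length were Cd68 and Cd36, so the upstream sequences of these genes are shown. Each is the 250 bases before an annotated transcription start, from RefSeq on GRCm38.p6, both on the minus strand and given 5′ to 3′. Cd36 lies at chr5:17835897-17836146, which is 1 of its starts, and Cd68 at chr11:69666171-69666420. Capitals mark motif matches on either strand, GGGCGG (the GC box, reversed as CCGCCC) and TGANTCA (the AP-1 type site).
Cd36: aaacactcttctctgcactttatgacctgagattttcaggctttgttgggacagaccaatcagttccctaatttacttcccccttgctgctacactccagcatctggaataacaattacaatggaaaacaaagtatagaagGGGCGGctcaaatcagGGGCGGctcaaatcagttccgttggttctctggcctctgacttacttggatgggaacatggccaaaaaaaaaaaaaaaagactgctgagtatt
Cd68: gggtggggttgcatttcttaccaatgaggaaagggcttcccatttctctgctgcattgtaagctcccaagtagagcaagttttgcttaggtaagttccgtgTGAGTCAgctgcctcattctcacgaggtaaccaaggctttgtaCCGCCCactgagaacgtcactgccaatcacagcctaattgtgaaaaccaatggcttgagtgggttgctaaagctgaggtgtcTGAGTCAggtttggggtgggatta
The Cd36 window held the GC box at 109 and at 93 bases before the start. The Cd68 window held the AP-1 type site at 149 and at 24 bases before the start, and the GC box at 106. The GC box occurs in 32.7% of all 32851 annotated windows of this length and the AP-1 type site in 6.75%. The other motifs searched were GAGGAAGT (PU.1 type, in 2.44% of windows), CACGTG (the E-box, 6.02%), the interferon response type (2.98%) and TATAAA (12.4%), and none of them matched in either window; no matches of different motifs overlapped. Windows were found for 8 members, not for Msr1 and Scarb1, and among the other six the GC box matched in Mrc1 and Scarb2 and the AP-1 type site in Olr1. All 250 bases of the Scarb2 window and 22 of the Mrc1 window were annotated as exon. A match is a description of letters and not evidence of binding.

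Depth ran from 20313901 to 25473814 gene-assigned reads in the mimic group and from 18538509 to 22668862 in the control group. The libraries differed by transcript length, mimic replicates 3, 4 and 6 the most. Relative to the control mean, their log2 CPM (CPM is reads scaled to a common library total, with 0.5 read added before the log) rose by 0.093, 0.12 and 0.11 per doubling of transcript length. The same slope was -0.029, 0.051 and 0.032 in mimic replicates 1, 2 and 5, and lay between -0.016 and 0.010 in the controls. Mimic replicates 2 and 5 thus also lay above every control, and a fit without replicates 3, 4 and 6 still holds them. Results that rest on mimic replicates 3, 4 and 6 are given with and without those libraries. The defining markers of macrophages were abundant, with a summed level over 10 genes of 14552 to 18471 CPM in mimic libraries and 16074 to 18748 CPM in controls. Summed levels were at most 1.31 CPM for T cell and mast cell markers in any library, and at most 2.28 CPM for B cell markers. Neutrophil markers summed to 9.43 to 16.3 CPM with the mimic and 14.1 to 18.0 CPM in controls and eosinophil markers to 27.4 to 29.2 CPM and 33.8 to 36.1 CPM. In the same order, dendritic cell markers summed to 2.46 to 3.46 and 2.98 to 4.41 CPM, resident peritoneal macrophage markers to 9.68 to 14.2 and 12.3 to 12.9 CPM, mesothelial markers to 3.60 to 7.23 and 4.78 to 6.67 CPM, and endothelial markers to 2.85 to 3.38 and 2.79 to 4.00 CPM. No marker was at 0 reads in all libraries. Of the 5 eosinophil markers only 1, Siglecf, passed the filter on low values given below. The other eosinophil markers had at most 13 reads in any library. For neutrophils 2 of 5 markers passed and the others had at most 2 reads. For endothelium 1 of 5 passed and the others had at most 13 reads. These sums thus rest on few genes, and the part of the listed cell types in the results was not tested. In bulk RNA, fewer cells of a type and less RNA per cell cannot be told apart.

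Of the 10 receptor genes, Msr1 and Scarb2 were higher with the mimic, Scarb1 was lower, and 7 did not pass the test. Msr1 was 1.46-fold higher, Scarb2 1.13-fold higher and Scarb1 1.22-fold lower. All 10 passed the filter on low values (5 or more libraries with a log2 CPM of -1 or above). A gene was called at a limma adjusted p below 0.05 over the 12969 genes tested, of which 30% were called, 15.4% higher and 14.6% lower. The members' share, 3 of 10, was the same as that background, so the count says nothing particular about scavenger receptors. Their median log2 fold change was 0.069, against 0.00071 over all genes tested. These 3 members were also the only ones whose groups did not overlap, a pattern shown by 14.9% of all genes tested, 8.89% with the mimic higher and 6.04% with it lower.

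**Figure D1:**
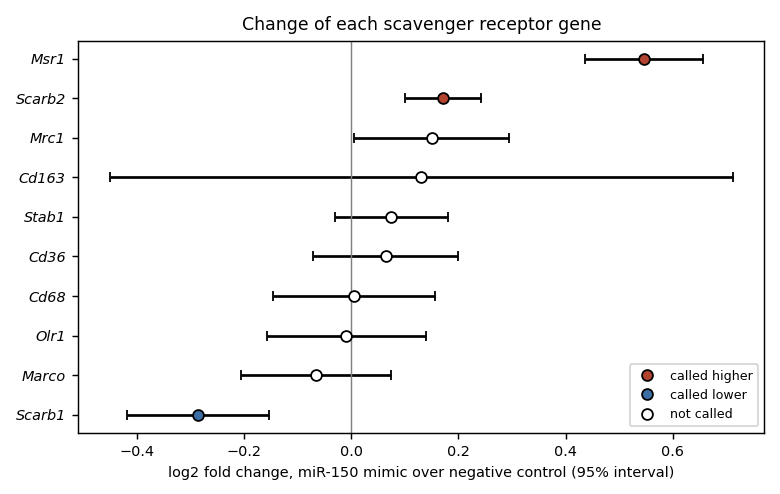
Log2 fold change of each scavenger receptor gene, miR-150 mimic over negative control, with the 95% confidence interval from limma (6 mimic and 5 control libraries). Filled points passed the threshold: Msr1 at 0.55, Scarb2 at 0.17 and Scarb1 at -0.29, and the interval of Cd163 is the widest.

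By level per length, the members spanned a wide range. In CPM per kilobase of the longest annotated transcript, Cd68 averaged 2327 ± 292 with the mimic and 2305 ± 84.1 in controls, and Cd36 averaged 1598 ± 175 and 1522 ± 55.1 (SD, n = 6 and 5 throughout). Msr1 averaged 136 ± 9.89 with the mimic and 93.4 ± 5.19 in controls, Scarb2 68.6 ± 0.782 and 61.0 ± 1.93, and Mrc1 56.3 ± 7.01 and 50.5 ± 1.01, each in the same unit and order. The rest were low: Stab1 21.7 ± 1.05 and 20.6 ± 1.50, Scarb1 16.4 ± 1.73 and 19.9 ± 0.494, Marco 9.25 ± 0.763 and 9.67 ± 0.700, Olr1 3.47 ± 0.277 and 3.50 ± 0.281, and Cd163 0.167 ± 0.065 and 0.145 ± 0.035 CPM per kilobase. In that order of control levels only the neighbours Stab1 and Scarb1 had overlapping ranges. With the summed length of all annotated exons in place of the longest transcript, Marco came before Scarb1. Together the 10 genes took 0.898% to 1.03% of the reads in mimic libraries and 0.890% to 0.935% in controls, and Cd36 alone made up 51.4% to 60.9% and 56.2% to 56.7% of those member reads.

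Msr1, the class A receptor for modified lipoproteins (ENSMUSG00000025044, GRCm38 chromosome 8, 39581685 to 39642673), was the member with the greatest change. Its log2 CPM had a lowest, median and highest value of 8.83, 8.95 and 9.10 in mimic libraries. In control replicates 1, 2, 3, 4 and 6 it was 8.46, 8.42, 8.50, 8.32 and 8.33. Every mimic library lay above every control, and the highest 3 were mimic replicates 3, 4 and 6. The mean was 8.95 ± 0.10 (SD, n = 6) with the mimic and 8.41 ± 0.080 (SD, n = 5) in controls. The log2 fold change was 0.55 ± 0.052 (SE; 95% interval 0.44 to 0.66; limma adjusted p = 7.31e-07). Without mimic replicates 3, 4 and 6 it was 0.46 (adjusted p = 1.91e-09), and after a correction of each library for transcript length 0.53 (adjusted p = 4.51e-08).

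Marco, the other class A member (ENSMUSG00000026390, chromosome 1, 120474538 to 120505024), was not called. Its log2 CPM ran from 3.97 over a median of 4.17 to 4.31 with the mimic, and was 4.23, 4.36, 4.08, 4.24 and 4.16 in the controls. The groups overlapped, and the log2 fold change was -0.065 ± 0.066 (SE; 95% interval -0.21 to 0.074; limma adjusted p = 0.473). The pair was compared directly by the log2 ratio of Msr1 over Marco within each library, which does not depend on the scaling of libraries. It averaged 4.80 ± 0.18 (SD, n = 6) with the mimic and 4.19 ± 0.15 (SD, n = 5) in controls, a difference of 0.61 (95% interval 0.38 to 0.84). A two-sided exact permutation test returned p = 0.00216, which is as low as its 462 arrangements can go, and p = 0.00541 after Benjamini-Hochberg adjustment over the 5 pairs compared. All 6 mimic ratios, 4.56 to 5.04, lay above all 5 control ratios, 4.06 to 4.42. Without mimic replicates 3, 4 and 6 the difference was 0.49 (adjusted exact permutation p = 0.0298). Before adjustment, that p was the smallest possible with those libraries left out. The class A genes thus shifted by different amounts.

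The class B genes moved in different directions. Scarb1, the lipoprotein receptor (ENSMUSG00000037936, chromosome 5, 125277087 to 125341094), had a log2 CPM from 5.46 over a median of 5.68 to 5.84 in mimic libraries. The controls were at 5.92, 5.98, 5.92, 5.91 and 5.99. No mimic library reached the lowest control, and mimic replicates 4 and 6 were lowest, at 5.46 and 5.49. The log2 fold change was -0.29 ± 0.063 (SE; 95% interval -0.42 to -0.15; limma adjusted p = 0.00363). It was -0.17 without mimic replicates 3, 4 and 6 (adjusted p = 0.00697), and with the length correction it was -0.28 (adjusted p = 0.00125).

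Scarb2, the lysosomal class B protein (ENSMUSG00000029426, chromosome 5, 92441314 to 92506833), was the steadiest member with the mimic. Its log2 CPM ran from 8.32 over a median of 8.33 to 8.36 in mimic libraries and was 8.19, 8.19, 8.19, 8.16 and 8.08 in the controls. The groups did not overlap, although the difference was small: 0.17 ± 0.034 as a log2 fold change (SE; 95% interval 0.099 to 0.24; limma adjusted p = 0.0018), and 0.18 without mimic replicates 3, 4 and 6 (adjusted p = 0.000486). With the length correction it was 0.13 (adjusted p = 0.0056).

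Cd36 (ENSMUSG00000002944, chromosome 5, 17781690 to 17888801) was not called. Its log2 CPM was 12.28, 12.16, 12.49, 12.48, 12.39 and 12.60 in mimic replicates 1 to 6 and 12.39, 12.37, 12.35, 12.26 and 12.31 in the controls. The mimic libraries thus lay on both sides of the controls, 4 above all of them (replicates 3, 4, 5 and 6) and 1 below (replicate 2). The log2 fold change was 0.064 ± 0.064 (SE; 95% interval -0.072 to 0.20; limma adjusted p = 0.469), and -0.059 without mimic replicates 3, 4 and 6 (adjusted p = 0.411).

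Among class B genes, the log2 ratio of Scarb1 over Scarb2 averaged -2.68 ± 0.15 (SD, n = 6) with the mimic and -2.22 ± 0.073 (SD, n = 5) in controls. The difference was -0.46 (95% interval -0.63 to -0.29), with an exact permutation p of 0.00216, the smallest possible, and 0.00541 adjusted over the 5 pairs. The groups of ratios did not overlap, and without mimic replicates 3, 4 and 6 the difference was -0.35 (adjusted exact permutation p = 0.0298). Cd36 over Scarb1 was higher by 0.35 with the mimic (95% interval 0.039 to 0.66), which did not pass (exact permutation p = 0.0325, adjusted p = 0.0541). It averaged 6.74 ± 0.30 and 6.39 ± 0.059 (SD, n = 6 and 5), and passed without mimic replicate 2 (0.43, adjusted p = 0.0265). For Cd36 over Scarb2 the difference was -0.11 (95% interval -0.28 to 0.066; exact permutation p = 0.201, adjusted p = 0.252). That ratio differed by -0.24 without mimic replicates 3, 4 and 6, with an adjusted exact permutation p of 0.0298, while Cd36 over Scarb1 was at 0.11 (adjusted p = 0.246). Each adjusted p of 0.0298 rests on the smallest p possible with those libraries left out. It shows only that the remaining mimic ratios did not overlap the control ratios.

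**Figure D2:**
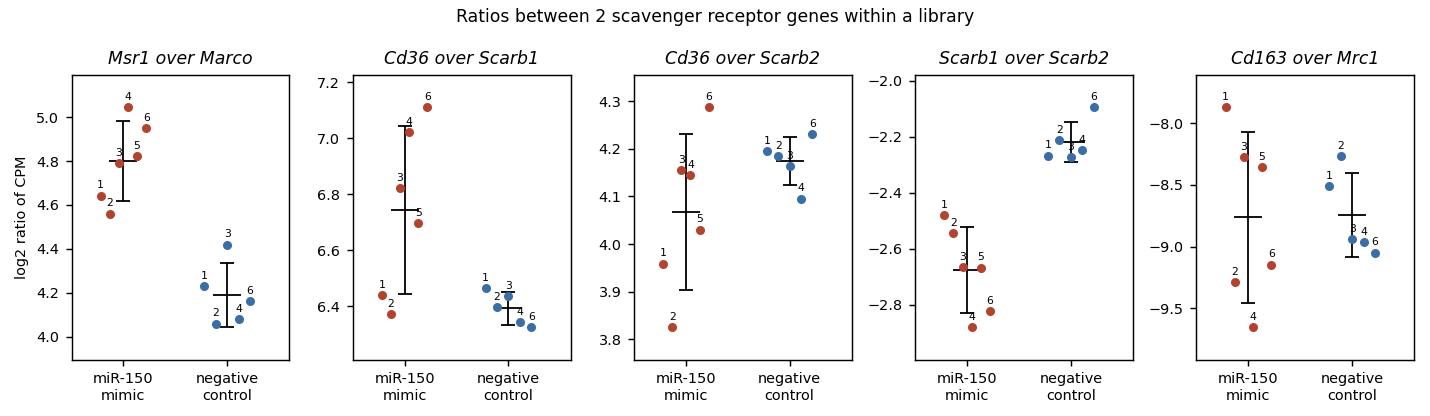
Log2 ratio of CPM between the members of 5 pairs within each library, with the miR-150 mimic on the left and the negative control on the right of each panel (points with replicate numbers; bar and whiskers, mean and SD). The mimic and control ratios do not overlap for Msr1 over Marco and for Scarb1 over Scarb2.

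Cd68, the heavily glycosylated class D protein of endosomes and lysosomes that is used as a macrophage marker (ENSMUSG00000018774, chromosome 11, 69664213 to 69666153), had nearly equal means. Its log2 CPM was 11.69, 11.55, 11.46, 11.21, 11.63 and 11.31 in mimic replicates 1 to 6, and 11.51, 11.52, 11.48, 11.39 and 11.45 in the controls. Mimic replicates 1, 2 and 5 lay above every control and 4 and 6 below every control. Over all libraries the log2 fold change was 0.0047 ± 0.071 (SE; 95% interval -0.15 to 0.16; limma adjusted p = 0.967). The call changed in 2 alternative fits. Without mimic replicates 3, 4 and 6, Cd68 was higher by 0.15 (adjusted p = 0.00511, with 16.2% of all genes called in that fit). With the length correction on all libraries it was higher by 0.13 (adjusted p = 0.0253, with 31.2% of genes called). The longest Cd68 transcript, 1230 nt, is the shortest among the members, and the order of its mimic values was the reverse of the order of the length slopes given above. The part of transcript length in the Cd68 values was not tested.

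Mrc1, the mannose receptor, a lectin that is high in alternatively activated macrophages (ENSMUSG00000026712, chromosome 2, 14229392 to 14332057), showed nearly the opposite order. Its log2 CPM was 8.00, 8.09, 8.30, 8.44, 8.15 and 8.42 in mimic replicates 1 to 6 and 8.12, 8.05, 8.08, 8.11 and 8.05 in the controls. Replicates 3, 4, 5 and 6 lay above every control and replicate 1 below. Mrc1 had a log2 fold change of 0.15 ± 0.069 (SE; 95% interval 0.0046 to 0.29; limma adjusted p = 0.107, not called). It passed without mimic replicate 1 (0.20, adjusted p = 0.0106, with 40.1% of genes called) and in a weighted voom fit (0.18, adjusted p = 0.00776, with 43.3% of genes called). Leaving out mimic replicates 3, 4 and 6 gave -0.0022 (adjusted p = 0.977). With the length correction Mrc1 was at 0.10 (adjusted p = 0.137, not called).

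**Figure D3:**
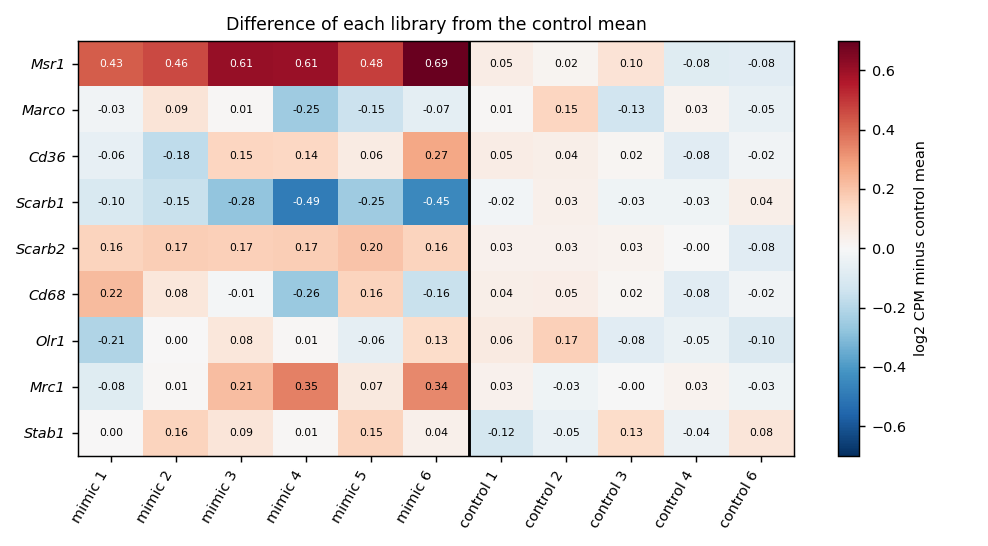
Difference in log2 CPM of each library from the control mean for 9 scavenger receptor genes (rows; Cd163 is left out for its few reads), with the 6 mimic libraries left of the 5 controls. Msr1 and Scarb2 are positive and Scarb1 negative in every mimic library. Stab1, which was not called, is also positive in each, in some barely so. Cd68, Mrc1, Cd36, Marco and Olr1 differ in sign among the mimic libraries.

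The remaining members did not pass. Stab1, an endocytic receptor for modified lipoprotein and matrix ligands (ENSMUSG00000042286, chromosome 14, 31139013 to 31168641), ran from a log2 CPM of 7.37 over a median of 7.42 to 7.52 with the mimic and was 7.24, 7.31, 7.49, 7.32 and 7.45 in controls. Its log2 fold change was 0.074 ± 0.050 (SE; 95% interval -0.031 to 0.18; limma adjusted p = 0.27), and 0.00092 with the length correction (adjusted p = 0.991). It shares 112 annotated exon bases with Nt5dc2 on the opposite strand, and whether counting used strand is not given in the sources used here. Olr1, a lectin-like receptor for oxidised lipoprotein (ENSMUSG00000030162, chromosome 6, 129485244 to 129507165), ran from 3.43 over 3.64 to 3.77 with the mimic and was 3.70, 3.81, 3.56, 3.59 and 3.54 in controls. Its log2 fold change was -0.0095 ± 0.070 (SE; 95% interval -0.16 to 0.14; limma adjusted p = 0.932).

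Cd163, the scavenger of haptoglobin-bound haemoglobin (ENSMUSG00000008845, chromosome 6, 124304656 to 124330527), was barely present. It had 9 to 24 reads per library, 100 in all over the mimic libraries and 64 over the controls. Its log2 CPM ran from -1.21 over -0.46 to 0.13 with the mimic and was -0.39, -0.22, -0.86, -0.85 and -0.99 in controls. The log2 fold change of 0.13 ± 0.28 (SE; 95% interval -0.45 to 0.71; limma adjusted p = 0.744) leaves a wide range, so a difference was not detectable at this depth. The log2 ratio of Cd163 over Mrc1 averaged -8.76 ± 0.69 (SD, n = 6) with the mimic and -8.75 ± 0.34 (SD, n = 5) in controls, a difference of -0.019 (95% interval -0.79 to 0.75; exact permutation p = 0.952).

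**Figure D4:**
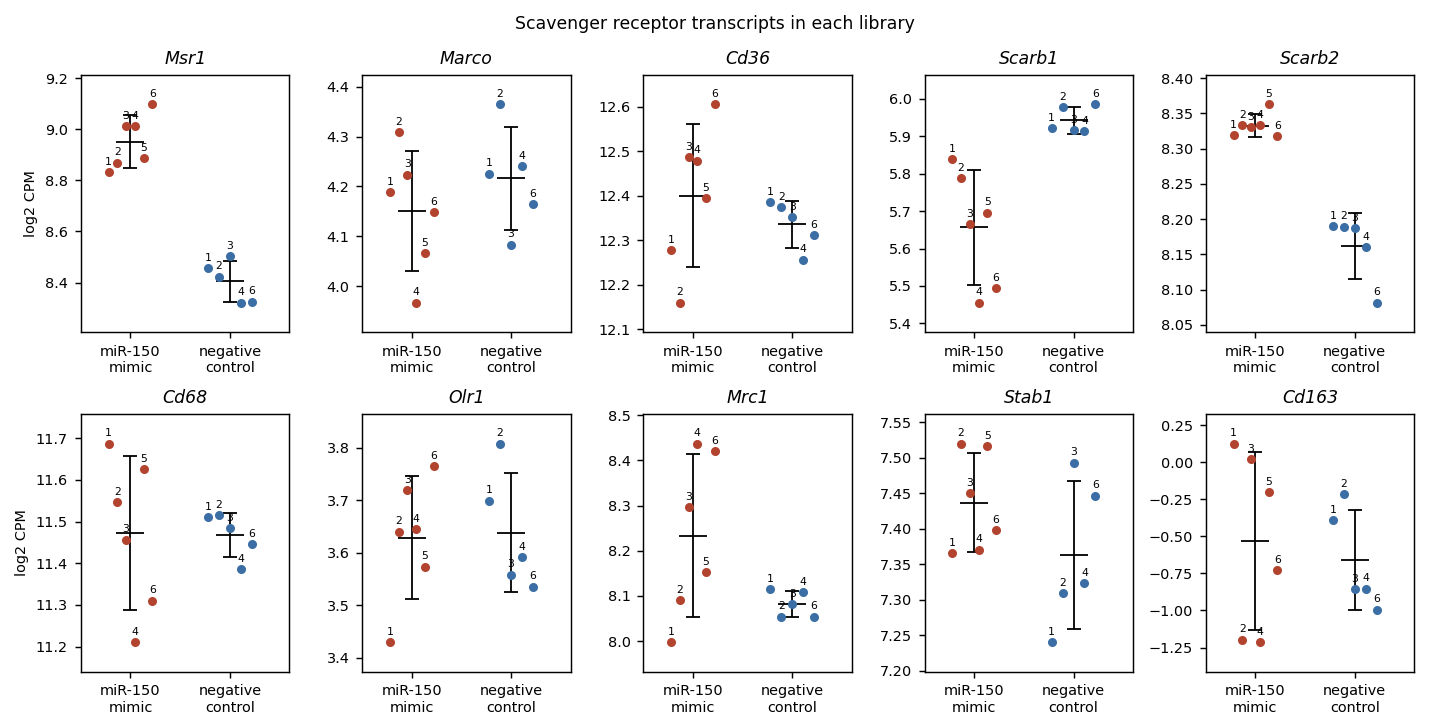
Log2 CPM of the 10 scavenger receptor genes in each library, with the miR-150 mimic on the left and the negative control on the right of each panel (points with replicate numbers; bar and whiskers, mean and SD; each panel has its own scale). Mimic and control points do not overlap for Msr1, Scarb1 and Scarb2.

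Spread differed between the groups. The SD of log2 CPM was greater with the mimic than in controls for 8 of 10 members, against 70.1% of all genes tested, where the median ratio of the SDs was 1.40. That ratio was 6.24 for Mrc1, 4.33 for Scarb1, 3.46 for Cd68 and 3.04 for Cd36, and 0.351 for Scarb2.

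Of 21 other scavenger receptor genes, 14 passed the filter on low values, 4 were higher and 2 were lower, against 15.4% higher and 14.6% lower among all genes tested. The median of their log2 fold changes was -0.037, against 0.00071 over all genes tested. Scarf1, an endothelial and phagocyte receptor for modified lipoproteins, rose by 0.48 ± 0.085 (SE; limma adjusted p = 0.000725). Cd5l, a secreted scavenger receptor cysteine-rich protein of macrophages, rose by 0.26 ± 0.037 (adjusted p = 9.8e-05). In both genes, named for their small p, every mimic library lay above every control, as in 8.89% of all genes tested. Cd44, the hyaluronan receptor, measured 0.14 ± 0.043 (adjusted p = 0.0253) and Cd14, the endotoxin co-receptor, -0.26 ± 0.072 (adjusted p = 0.0153), with overlapping groups. Those last calls were lost without mimic replicates 3, 4 and 6, at 0.064 (adjusted p = 0.216) and -0.10 (adjusted p = 0.126). In that fit 3 genes of the list were higher and 0 lower, against 9.36% higher and 6.83% lower among all genes. The call of Cd44 was also lost without mimic replicate 3 (adjusted p = 0.0612) or 6 (0.0577) or control replicate 4 (0.062) or 6 (0.0699), with plain library totals (0.0523), with plain empirical Bayes (0.0517) and with the replicate block (0.0521). This list had 2 genes higher without mimic replicate 3 and without control replicate 4 or 6, and 1 lower without mimic replicate 4 or 6 or control replicate 3, 4 or 6. Over all genes, the fits named for the count of higher genes called 11.5% to 11.9% higher. The fits named for the count of lower genes called 10.8% to 11.7% lower.

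Of 17 genes that act with Cd36 in ligand signalling, all tested, 8 were higher and 2 were lower, and their median was 0.10 on the log2 scale. Among all genes tested 15.4% were higher and 14.6% lower. Tlr4, an endotoxin receptor that can pair with Cd36, rose by 0.39 ± 0.058 (SE; limma adjusted p = 0.000147). Lyn, a Src-family kinase bound by Cd36, rose by 0.26 ± 0.039 (adjusted p = 0.000185). Thbs1, the matrix protein thrombospondin that binds Cd36, rose by 0.30 ± 0.053 (adjusted p = 0.000649). Cd9, a tetraspanin that associates with Cd36, fell by 0.30 ± 0.061 on the log2 scale (adjusted p = 0.00221). For these 4 genes, named for their small p, the mimic and control libraries did not overlap, as in 14.9% of all genes tested. Cd36 itself, as given above, was not called. A fit without mimic replicates 3, 4 and 6 gave 6 higher and 2 lower, with Cd9 at -0.20, where 9.36% of all genes were higher and 6.83% lower. A fit without control replicate 6 gave 5 higher, where 11.5% of all genes were.

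Of 20 genes for handling the lipid cargo, 19 were tested, 5 were higher and 1 was lower, and their median was 0.040 on the log2 scale. That share, 6 of 19, is near the 30% called among all genes tested. Npc2, which carries cholesterol out of lysosomes, rose by 0.46 ± 0.069 (SE; limma adjusted p = 0.000188). Abca1, the cholesterol exporter, rose by 0.26 ± 0.043 (adjusted p = 0.00037), Fabp4, a fatty acid carrier, by 0.22 ± 0.041 (adjusted p = 0.0013), and Plin2, the lipid droplet coat protein, by 0.18 ± 0.041 (adjusted p = 0.00554). In each of these 4 genes, named for their small p, every mimic library lay above every control, as in 8.89% of all genes tested. The counts without mimic replicates 3, 4 and 6 were 8 higher and 3 lower, in a fit that called 16.2% of all genes.

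In the haem and iron list, which follows the cargo of Cd163, 13 of 15 genes were tested, 1 was higher and 6 were lower, and their median was -0.041 on the log2 scale. Among all genes tested 15.4% were higher and 14.6% lower. Tfrc, the transferrin receptor, rose by 0.33 ± 0.057 (SE; limma adjusted p = 0.000608). Slc48a1, a haem transporter, fell by 0.36 ± 0.064 on the log2 scale (adjusted p = 0.000707), Ftl1, ferritin light chain, by 0.39 ± 0.090 (adjusted p = 0.00632) and Blvrb, a biliverdin reductase, by 0.44 ± 0.10 (adjusted p = 0.00672). The Ftl1 value is uncertain because ferritin genes have near-identical pseudogene copies, and its call was lost with no filter on low values (adjusted p = 0.0518). When mimic replicates 3, 4 and 6 were left out, which left 9.36% of all genes higher and 6.83% lower, 1 gene was higher and 3 were lower, with Tfrc at 0.21, Ftl1 at -0.21 (adjusted p = 0.0212) and Blvrb at -0.25 (adjusted p = 0.0217). Without mimic replicate 1, 3 genes were higher, as were 20.8% of all genes, and without control replicate 4, 2 were, as were 11.9% of all genes. Hmox1, the haem oxygenase, was at -0.027 ± 0.055 (adjusted p = 0.734) and was named after its value was seen.

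Of 16 transcription factors known to act on scavenger receptor or lysosomal genes, all tested, 2 were higher and 4 were lower, and their median was -0.010 on the log2 scale. That share, 6 of 16, stands beside 30% called among all genes tested, 15.4% higher and 14.6% lower. Cebpb, a bZIP factor of inflammatory macrophages, fell by 0.66 ± 0.11 on the log2 scale (SE; limma adjusted p = 0.00112), and Cebpa, its myeloid relative, by 0.35 ± 0.062 (adjusted p = 0.000836). Tfeb, which drives lysosomal genes, fell by 0.43 ± 0.066 (adjusted p = 0.000195), and Maf, a macrophage bZIP factor, rose by 0.23 ± 0.040 (adjusted p = 0.000683). In these 4 genes, named for their small p, the groups did not overlap, as in 14.9% of all genes tested. Cebpb was at -0.42 (adjusted p = 0.000145) and Cebpa at -0.23 (adjusted p = 0.000501) without mimic replicates 3, 4 and 6. Pparg, a receptor known to induce Cd36, was at -0.0077 ± 0.043 (named after its value was seen).

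**Figure D5:**
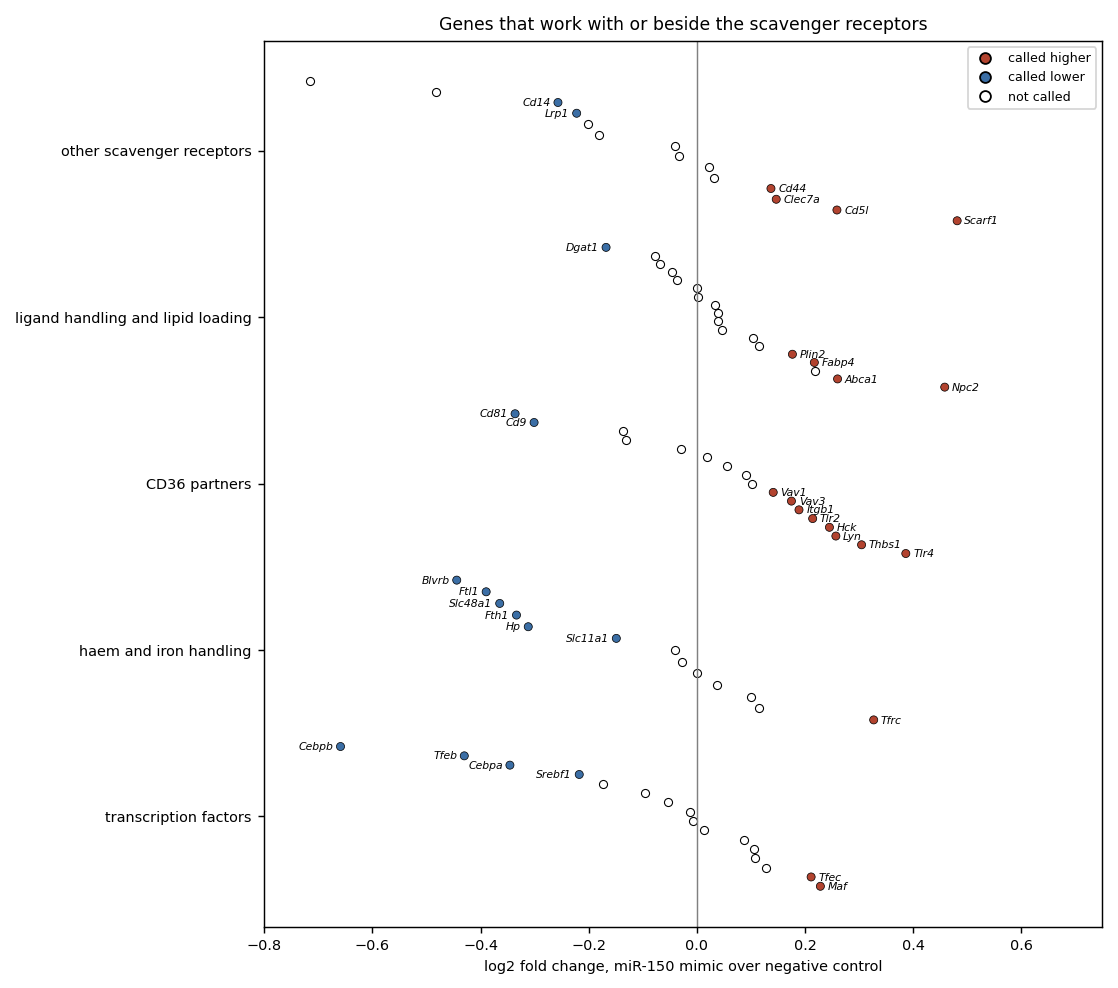
Log2 fold change, miR-150 mimic over negative control, of the tested genes of 5 related lists (a point per gene, with 1 gene of the lipid list not shown; filled and named where called). Of the named genes, Scarf1, Npc2 and Tlr4 stand farthest to the right and Cebpb farthest to the left.

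The authors' deposited table gives the same 3 members an adjusted p below 0.05, with 9.2% of its 31936 genes below that threshold. That share has no filter on low values, so it is not comparable with the 30% of the 12969 genes tested above. The deposited table lists a log2 fold change of 0.55 for Msr1 (limits 0.45 and 0.64), 0.17 for Scarb2 (limits 0.12 and 0.22) and -0.29 for Scarb1 (limits -0.42 and -0.16).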

How the data were processed

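RNA was sequenced from 6 mimic and 5 control libraries of macrophages. Per the series' design text, 12 samples were prepared and 1 was left out by the submitters for improper fragmentation; it was not analysed here. Tools named in the submitters' processing notes are STAR, Subread, featureCounts and edgeR. Their versions, the genome build and annotation, and whether counting used strand are not given in the sources used here. Deposited by the authors were log2 CPM values, which correspond to whole reads plus 0.5 over a scaled library total; whole reads came out for 100% of values, within 0.01 read. The deposited table also holds the authors' log2 fold changes with limits, p-values and adjusted p-values, whose test was not given, a signed linear fold, and scores (B and t) that were not used. The first row per gene was kept (31936 of 32265 rows).

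Groups and replicate numbers came from the sample titles. The members, gene lists and tests were chosen with earlier results of these data known. Linear models with a group term were fitted with limma 3.58.1 (R 4.3.3) to the log2 CPM of the 12969 genes with at least -1 in at least 5 libraries, with empirical Bayes moderation using a trend and robust settings, and Benjamini-Hochberg adjustment over all of them. The procedure was tested on simulated data. Ratios between members were tested by enumerating all 462 splits. Text names all members and, of each other list, up to 4 called genes by smallest p; other genes were named after their values were seen. A gene counted in the lipid list is not reported here by itself. Alternatives covered the scaling, filter, pseudocount, a voom fit with sample weights, moderation, a replicate block, each library left out, mimic replicates 3, 4 and 6 left out, and a lowess correction for transcript length (span 0.3). Lengths and positions are from GENCODE M21 (GRCm38), which may not be the annotation used by the authors. Flvcr1, on the haem list, was not analysed here. No pair of replicates looked like 1 library deposited again: chi-square over degrees of freedom was 2.57 to 44.1. Figures used matplotlib 3.10.9.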

Additional observations from a re-analysis of the deposited data

Results flagged for a closer look

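Single libraries stood far from the others of their group in 2 of the 70 groups of values examined, both for Scarb2. Chance alone gives such a flag in about 1 of 20 groups. Scarb2 measured a log2 CPM of 8.36 in mimic replicate 5, where the other mimic libraries lay between 8.32 and 8.33. It measured 8.08 in control replicate 6, where the other controls lay between 8.16 and 8.19. Without mimic replicate 5 and without control replicate 6 the log2 fold change of Scarb2 was 0.16 and 0.15, and it passed the threshold in both fits.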

How the results depend on the processing

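Msr1 (log2 fold change 0.46 to 0.57), Scarb2 (0.13 to 0.20) and Scarb1 (-0.32 to -0.17) kept their direction and their call in all 23 alternatives run for each. Leaving out 1 library at a time gave 0.52 to 0.57, 0.15 to 0.18 and -0.32 to -0.25 for them, -0.038 to 0.057 for Cd68, -0.037 to 0.033 for Olr1, -0.00056 to 0.27 for Cd163, 0.11 to 0.20 for Mrc1, 0.023 to 0.11 for Cd36, -0.099 to -0.028 for Marco and 0.044 to 0.11 for Stab1. It gave 0.28 to 0.43 for the ratio of Cd36 over Scarb1, -0.15 to -0.059 for Cd36 over Scarb2 and -0.20 to 0.16 for Cd163 over Mrc1. Among other scavenger receptors it left 2 to 4 higher and 1 to 3 lower, among Cd36 partners 5 to 9 higher, and in the haem and iron list 1 to 3 higher. Cd68 was at -0.0047 with plain library totals, -0.0081 in the voom fit, -0.026 with the replicate block, 0.15 without mimic replicates 3, 4 and 6 and 0.13 with the length correction. Olr1 was at 0.018 with upper-quartile scaling, 0.024 in the voom fit and 0.0015 with the replicate block. Mrc1 was at 0.18 in the voom fit. Without mimic replicates 3, 4 and 6, Mrc1 was at -0.0022, Cd36 at -0.059, Cd36 over Scarb2 at -0.24 and Cd163 over Mrc1 at 0.24. In that fit 1214 of all genes were higher and 886 lower, against 1997 and 1895; 0 other scavenger receptors were lower, 8 lipid genes higher and 3 lower, and 3 haem and iron genes lower. Upper-quartile scaling left 1 other scavenger receptor lower and 3 haem and iron genes higher, and moved the split over all genes to 2402 higher and 1620 lower. The median log2 fold change of all genes was then 0.028. Without a filter 0 lipid genes were lower, and 2 haem and iron genes were higher and 3 lower. The voom fit gave 3 haem and iron genes higher, plain empirical Bayes 2 other scavenger receptors higher and 1 lower, and the length correction 2 lipid genes lower. The cause of these shifts was not tested. Same-numbered libraries did not deviate together (correlations of -0.061 to 0.062 over 5 shared numbers). Only mimic replicates 4 and 6 correlated best with the control of their number. These correlations cannot show whether the samples were paired, and the labels do not say. With the replicate block, which gives no weight to mimic replicate 5, 1777 genes were higher and 1796 lower. The paired ratio differences were 0.61 for Msr1 over Marco and -0.46 for Scarb1 over Scarb2. With 5 shared numbers an exact sign-flip test cannot go below p = 0.0625, so neither could pass. No member fell under the filter on low values, so the test planned for such members was not run, and Cd163 has no value under the stricter filter. With 9 to 24 reads per library, depth limits what can be said of Cd163.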
